A study of Mus musculus with 24 samples.

Results

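Libraries of mouse hematopoietic stem cells (HSCs), the source of all blood lineages, were compared after knockdown of the microRNA miR-139 and with a non-target control. The comparison used 12 of the 24 RNA sequencing libraries of the series, chosen by their genotype label alone: 6 labelled miR139-KD and 6 labelled NTC. All genes were measured in each. The other 12 libraries belong to overexpression of PUS10, a pseudouridine synthase that modifies RNA, and to its deletion, and they enter below only where the effects of the manipulations are tested against each other. The labels give the cell type and the genotype and no age, sex, strain, culture, vector or knockdown method. They do not tie a library to an animal, so every p-value rests on the scatter among libraries, and part of that scatter may be technical.

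MicroRNAs are short RNAs that guide a silencing complex to messenger RNAs, mostly through pairing of bases 2 to 8, the seed, with sites in 3′ untranslated regions (UTRs). Targets are degraded or translated less, so direct targets of a lost microRNA are generally known to rise. HSCs are known for self-renewal and for branching into multipotent progenitors, which lean towards lymphoid or myeloid fates, and into megakaryocytes, the cells that shed platelets. A platelet-biased subset of HSCs that carries von Willebrand factor is known to expand with age, while lymphoid output is known to decline.

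The 2 mature strands of miR-139 are shown because the counts of sites below rest on their seeds, in capitals. Both are read from RefSeq on GRCm38.p6, on the plus strand, the first at chr7:101475382-101475403 and the second at chr7:101475418-101475439.
mmu-miR-139-5p: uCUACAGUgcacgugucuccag
mmu-miR-139-3p: uGGAGACGcggcccuguuggag
The hairpin, at chr7:101475376-101475443, lies inside Pde2a, a phosphodiesterase gene at chr7:101421691-101512827 on the same strand (GRCm38). Of 12 annotated Pde2a transcripts 10 span the hairpin and 0 have an exon over it, so it is intronic. The precursor Mir139 had 0 counts in all 12 libraries, and Pde2a reached at most 1.56 CPM (counts normalised to a common library size) and was too low to test. Smart-seq2 copies polyadenylated RNA, and mature microRNAs have no such tail, so these counts do not show how far miR-139 was lowered. Pus10, the gene the series is about, overlapped between the groups, at 25.7 to 41.3 CPM in NTC and 21.6 to 45.5 in miR139-KD (log2 fold change −0.12, SE 0.202, edgeR adjusted p = 0.846).

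Counts assigned to genes numbered 11784533 to 14741130 per library in NTC and 9873587 to 14418088 in miR139-KD, with 15884 to 17028 and 15575 to 16390 genes detected. Stem cell markers were present in every library of both groups, among them Kit (165 to 303 CPM over all 12), Hlf (55.8 to 114), Meis1 and Mecom. HSC identity genes summed to 1279 to 2142 CPM in NTC and 1900.5 to 2335 in miR139-KD. Multipotent progenitor genes summed to 2350 to 8552 and 883 to 6466 CPM. These lists hold different genes, so their sums do not measure shares of cells. Markers of other lineages were present too and varied by library. Summed plasma cell genes stood at 299 to 411 CPM in 5 NTC libraries and 10795 in NTC library 5, and at 403 to 1180.2 in 4 miR139-KD libraries, 3359.5 in library 6 and 9984 in library 5. Igkc, the kappa light chain of antibodies, exceeded 100 CPM in those 3 libraries and in miR139-KD library 2. Neutrophil and monocyte genes summed to 2106 to 23139 CPM in NTC and 1987 to 21411 in miR139-KD, and erythroid genes to 2466 to 16353 and 4070.2 to 14069. Mast cell, basophil and eosinophil genes summed to at most 121 CPM except in miR139-KD libraries 3 (1273) and 6 (2116). The 14 T and NK cell markers summed to 307 to 502 CPM in NTC and 199 to 396 in miR139-KD, with 6 at 0 in all 12 libraries (Cd3e, Cd3g, Cd8a, Cd8b1, Trac and Gzma). The 14 stromal and endothelial markers summed to 51.5 to 127 and 171 to 307 CPM, with 5 at 0 throughout (Col3a1, Dcn, Pdgfra, Cdh5 and Cldn5) and 1 of 4 tested called, Vwf, which megakaryocytes also express. The least correlated library of each group was NTC library 6 and miR139-KD library 1. The part of these differences in the results was not tested. The main counts are given below without the libraries high in Igkc and without the least correlated pair. No set of libraries was left out by its neutrophil, erythroid or mast cell genes.

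**Figure D1:**
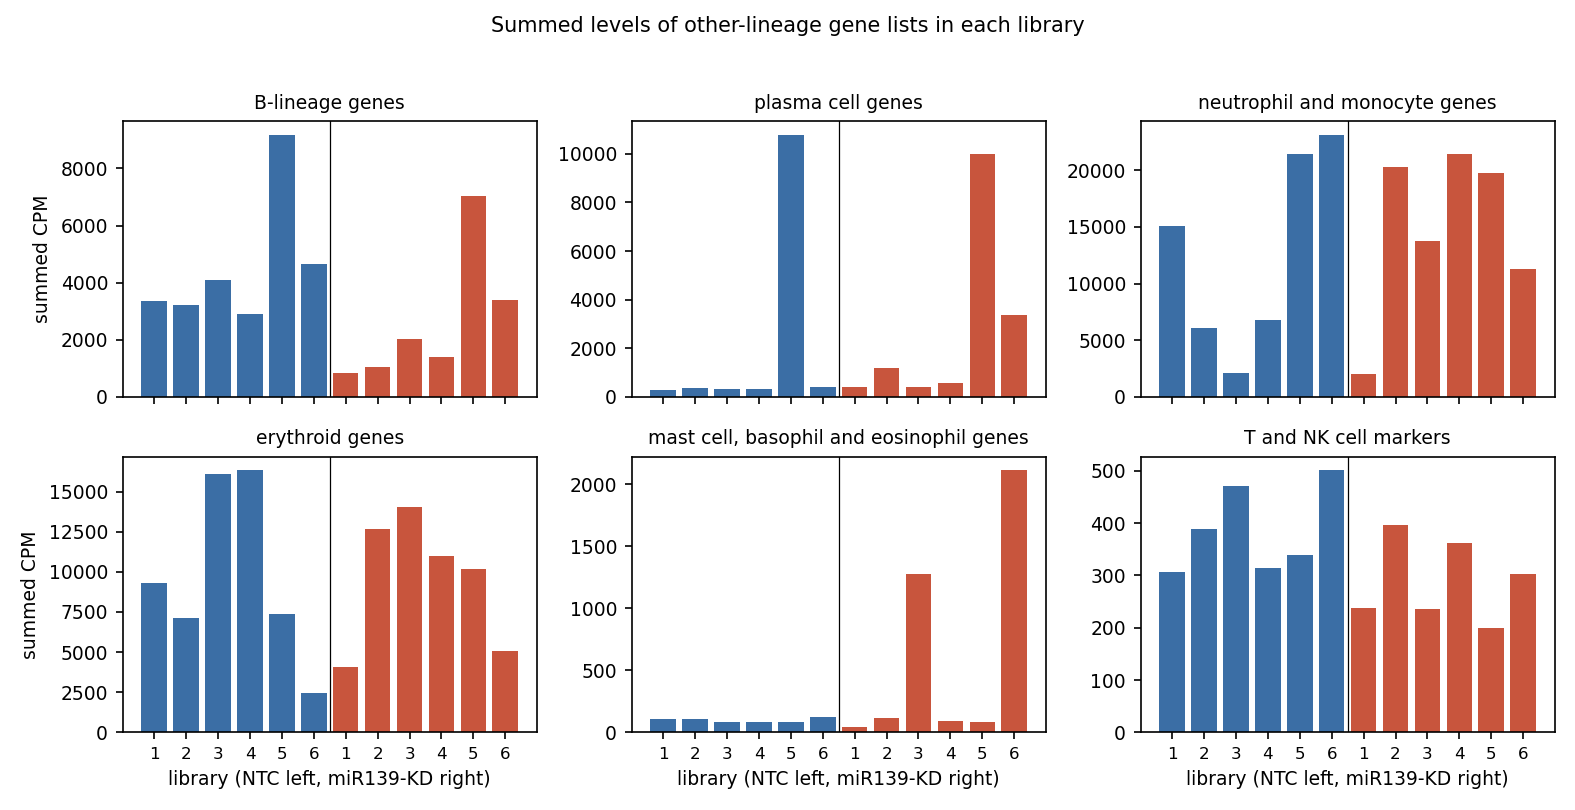
Summed normalised CPM (vertical axis, linear) of 6 gene lists in each library, NTC libraries 1 to 6 in blue and miR139-KD libraries 1 to 6 in red. Plasma cell genes stood out in NTC library 5 (10795) and miR139-KD library 5 (9984), and neutrophil, monocyte and erythroid genes varied within both groups.

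Of 13295 genes tested with edgeR's quasi-likelihood test, 187 were higher in miR139-KD (1.41%) and 174 lower (1.31%) at a Benjamini-Hochberg adjusted p under 0.05, or 2.72% in all, and the median log2 fold change of all genes was 0.02. In 219 genes every miR139-KD library lay above every NTC library (1.65%), and in 236 every one lay below (1.78%). Of the 361 genes called, 251 had such separated groups. Leaving out single libraries left between 196 and 340 genes called, with 224 without NTC library 2, 196 without NTC library 3, 237 without NTC library 4, 238 without miR139-KD library 1 and 229 without miR139-KD library 2. A core of 159 genes, 78 higher and 81 lower, was called in all 12 of these fits, and genes named below belong to it unless stated. Without the 4 libraries in which Igkc exceeded 100 CPM, which leaves 5 NTC and 3 miR139-KD libraries, 60 genes were called (23 higher, 37 lower), and 49 of them were among the 361. Of 90 genes followed through the alternative fits and called with all libraries, 27 kept their call in this fit, so most genes named below lost it there. All 361 kept their direction in every alternative fit in which they were tested.

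**Figure D2:**
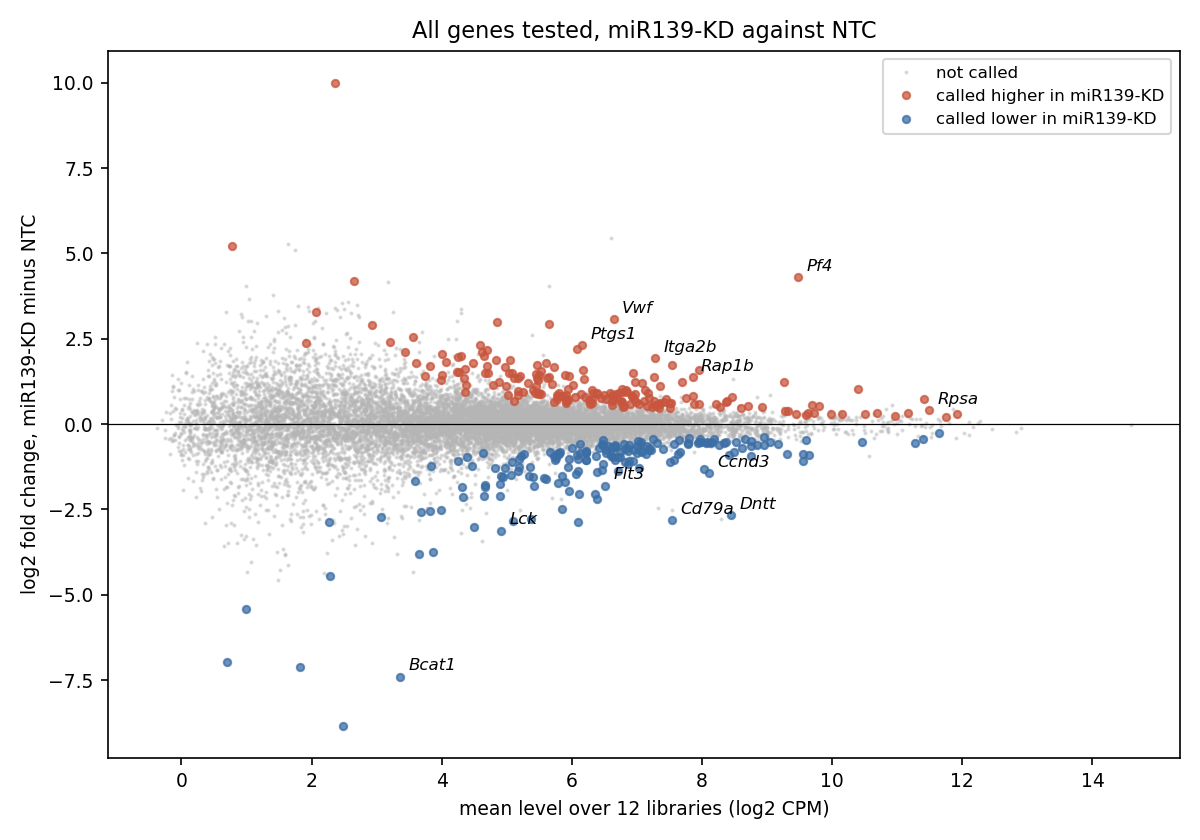
Each of the 13295 genes by its mean level over the 12 libraries (log2 CPM) and its log2 fold change, miR139-KD minus NTC. Red points are the 187 genes called higher and blue points the 174 called lower; Pf4 combines a high level with a log2 fold change of 4.31.

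Many genes for receptors and granule proteins of megakaryocytes and platelets were higher in miR139-KD. Of 14 tested megakaryocyte adhesion receptors 7 rose and 0 fell, with a median log2 fold change of 1.72 against 0.02 over all genes. Itga2b, which encodes CD41, the fibrinogen receptor's alpha chain (ENSMUSG00000034664.13, chr11:102453297-102470122, minus strand), lay between 27.3 and 89.2 CPM in NTC (median 66.3) and between 141 and 337 in miR139-KD (median 245). The groups did not overlap, and the log2 fold change, miR139-KD over NTC, was 1.93 (SE 0.25, edgeR adjusted p = 0.00115). In parentheses below, the first value is this log2 fold change. Gp9, a subunit of the receptor that binds von Willebrand factor, ran from 10.9 to 37.4 CPM in NTC (median 24.9) and from 61.0 to 177 in miR139-KD (median 102), again without overlap (2.19, SE 0.313, edgeR adjusted p = 0.002). Vwf, the ligand itself, had 5 NTC libraries at 3.2 to 24.8 CPM and library 5 at 64.5, all below the 99.0 to 253 of miR139-KD (3.06, SE 0.608, edgeR adjusted p = 0.015). The tetraspanin Cd9 rose from a median of 79.4 to 222 CPM with separated groups (1.38, edgeR adjusted p = 0.00274). Clec1b, the podoplanin receptor CLEC-2, was at most 2.19 CPM in NTC and 7.4 to 20.4 in miR139-KD (edgeR adjusted p = 0.0317), but was called in only 5 of the 12 fits that leave out 1 library. Itgb3 and Gp1ba were also called in fewer than 3 of those fits. The count of 7 fell to 4 without NTC library 4 or any of miR139-KD libraries 1, 2 and 3, to 4 without NTC library 6 and miR139-KD library 1 together, and to 2 without the 4 libraries high in Igkc.

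Genes of platelet granules and platelet signalling behaved alike, with 8 of 21 tested members higher, 0 lower and a median of 0.62. Pf4, a chemokine stored in alpha granules, spanned 18.7 to 122 CPM in NTC (median 65.9) and 727 to 2255 in miR139-KD (median 1261). Its lowest miR139-KD library was thus above every NTC library, and its log2 fold change was the largest of the 21 (4.31, SE 0.555, edgeR adjusted p = 0.00179). Ptgs1, the cyclooxygenase that starts thromboxane synthesis in platelets (ENSMUSG00000047250.13, chr2:36230426-36252272, plus strand), stood at 11.8 to 33.2 CPM (median 24.9) and 80.2 to 168 (median 119), with no overlap (2.32, SE 0.236, edgeR adjusted p = 3.52e-04). Rab27b, a small GTPase that brings dense granules to the membrane, went from a median of 7.42 to 50.5 CPM (3.00, SE 0.476, edgeR adjusted p = 0.00347). The caveolar coat protein gene Cavin2 moved similarly, from 12.5 to 86.9 (2.94, SE 0.418, edgeR adjusted p = 0.00194). Gng11, a G protein gamma subunit, was tight in miR139-KD, with 5 libraries at 101 to 106.8 CPM and library 1 at 130.1, against 25.1 to 54.9 in NTC (1.58, edgeR adjusted p = 4.92e-04). Mmrn1, which stores factor V in granules, went from a range of 11.8 to 42.9 CPM to one of 50.6 to 99.4 (1.35, edgeR adjusted p = 0.031), and lost its call in some of the reduced fits (up to 0.0726 without NTC library 3). Smaller rises were those of Nrgn, a calmodulin-binding protein (1.43), and of talin, Tln1, which activates integrins (0.51, SE 0.0975), both without overlap between the groups. The chemokine gene Ppbp and the coagulation genes F5 and F13a1, also on the list, were not called. This list had 7 to 9 called members when single libraries were left out, and 3 without the 4 libraries high in Igkc.

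**Figure D3:**
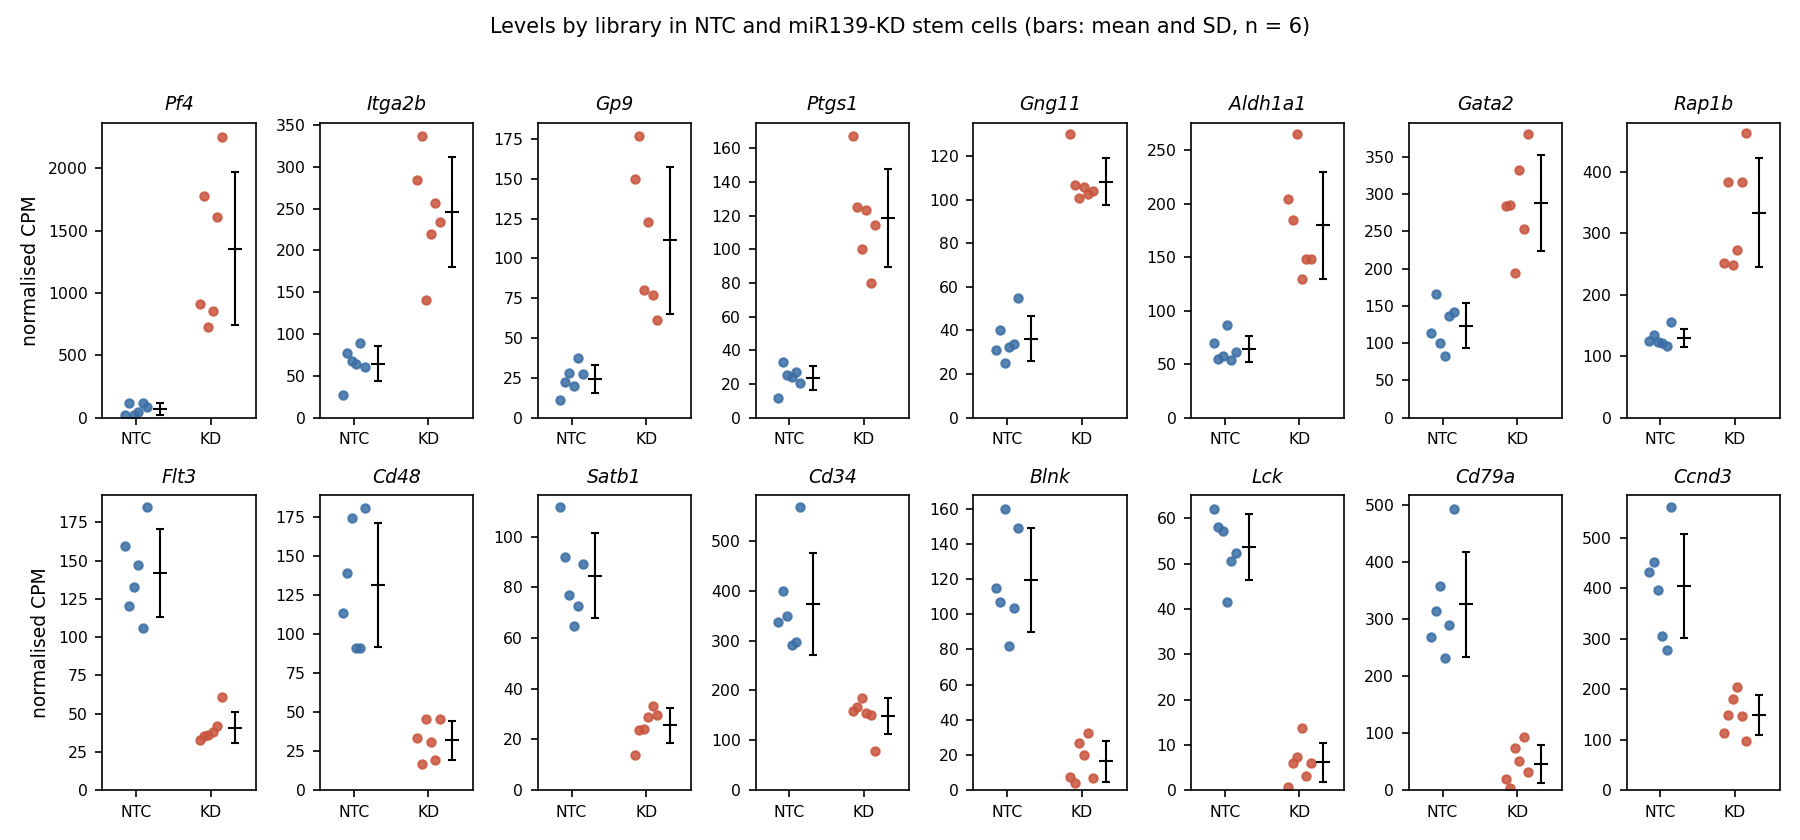
Normalised CPM of 16 genes in each library (points, linear axes from 0), NTC in blue and miR139-KD (KD) in red, with the mean and SD of 6 libraries beside them. Upper row: megakaryocyte and stem cell genes and Rap1b, called higher; lower row: progenitor and lymphoid genes and Ccnd3, called lower. In all 16 the 2 groups did not overlap.

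Some transcription factors of stem cells and megakaryocytes rose as well. Of 19 tested 8 were higher and 0 lower, with a median of 0.46. Gata2, a zinc finger factor of stem and megakaryocyte progenitors (chr6:88193891-88207032, plus strand), had 83.4 to 166 (median 125) and 194 to 381 CPM (median 285; 1.23, SE 0.18, edgeR adjusted p = 0.00226). Etv6, an ETS family repressor, was higher by less (0.74, SE 0.141, edgeR adjusted p = 0.0122). Both had separated groups and were called in every fit that leaves out 1 library. Zfpm1, the GATA cofactor FOG1 (0.93, edgeR adjusted p = 0.0183), lost its call without NTC library 3. Tal1, Runx1, Fli1 and Gfi1b were called with all libraries but in 2 to 8 of the 12 reduced fits, Fli1 at 0.85 (edgeR adjusted p = 0.0343) and Runx1 at 0.68 (edgeR adjusted p = 0.032). The count of 8 was 3 without NTC library 3, 5 without NTC library 4, NTC library 6 or any of miR139-KD libraries 1, 2 and 6, 3 without NTC library 6 and miR139-KD library 1 together, and 1 without the 4 libraries high in Igkc.

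Promoters of some megakaryocyte genes called higher are shown, since Gata2 and the ETS family gene Etv6 were called higher too. Whether GATA or ETS factors act on these genes was not tested. Each is 300 bases from RefSeq (GRCm38.p6), from 250 before to 50 after the gene's start, written in the direction of transcription. Capitals mark letters that GATA factors bind, AGATAA with AGATAG and, in the same way, TGATAA with TGATAG, and those that ETS factors bind, AGGAAG with CGGAAG, on either strand. Matches of the 2 kinds can share bases at their ends, and each was counted on its own.
Pf4, chr5:90772185-90772484, plus strand: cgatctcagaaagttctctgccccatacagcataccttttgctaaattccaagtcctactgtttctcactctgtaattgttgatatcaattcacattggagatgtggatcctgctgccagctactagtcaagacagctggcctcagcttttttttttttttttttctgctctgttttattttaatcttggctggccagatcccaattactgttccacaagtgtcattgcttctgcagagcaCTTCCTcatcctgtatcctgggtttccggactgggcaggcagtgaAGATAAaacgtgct
Itga2b, chr11:102469834-102470133, minus strand: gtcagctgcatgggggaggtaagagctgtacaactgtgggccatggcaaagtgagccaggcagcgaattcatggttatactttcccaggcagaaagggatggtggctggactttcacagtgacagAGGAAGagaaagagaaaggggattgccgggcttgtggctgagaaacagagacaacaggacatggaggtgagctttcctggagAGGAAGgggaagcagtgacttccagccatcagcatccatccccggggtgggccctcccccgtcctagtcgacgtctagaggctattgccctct
Gp1ba, chr11:70638872-70639171, plus strand: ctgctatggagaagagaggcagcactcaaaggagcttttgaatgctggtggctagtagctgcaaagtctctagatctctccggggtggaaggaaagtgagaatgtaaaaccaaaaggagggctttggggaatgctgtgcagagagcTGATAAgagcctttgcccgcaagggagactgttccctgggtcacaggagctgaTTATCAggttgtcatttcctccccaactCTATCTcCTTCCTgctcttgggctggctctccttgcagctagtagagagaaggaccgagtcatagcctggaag
The Pf4 promoter held 1 GATA and 1 ETS match, Itga2b 0 and 2, and Gp1ba 3 and 1. Over the 11 promoters found for megakaryocyte and platelet genes called higher, 4 held a GATA match and 8 an ETS match. For comparison, 29.8% of all 32851 RefSeq promoters and 19.1% of those of tested genes held a GATA match, and 46.5% and 55.2% an ETS match. Among promoters of all genes called higher the shares were 25.4% and 48.6%, and among genes called lower 21.0% and 51.1%. A match of letters is not a bound site, and 11 promoters give these shares little precision.

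Genes that define HSCs rose in part. Of 30 tested HSC identity genes 5 were higher and 1 lower, with 25 of 30 log2 fold changes above 0 and a median of 0.62. Ctnnal1, an alpha-catenin relative used as an HSC reporter, rose from a range of 4.09 to 14.2 CPM in NTC to one of 14.9 to 69.9 in miR139-KD, without overlap (1.99, SE 0.42, edgeR adjusted p = 0.0217, 0.0526 without miR139-KD library 2). Slamf1, the sorting marker CD150, ran from 7.04 to 17.9 CPM and from 15.1 to 43.2, so its groups overlapped (1.36, edgeR adjusted p = 0.0325), and it was called in 3 of the 12 reduced fits. Vldlr, a lipoprotein receptor on the list, went the other way, from a range of 29.4 to 86.1 CPM in NTC to one of 9.59 to 19.6 (−1.75, SE 0.294, edgeR adjusted p = 0.00513). The marker Procr (EPCR) differed by 0.24 (edgeR adjusted p = 0.836), the stem cell factor receptor Kit by 0.27 (0.288), and the transcription factors Hlf by 0.45 (0.174) and Mecom by 0.83 (0.177), none of them called. The 5 calls fell to 2 or 3 when any 1 of NTC libraries 1, 2, 3, 4 and 6 or miR139-KD libraries 1, 2, 3 and 6 was left out, to 3 without NTC library 6 and miR139-KD library 1 together, and to 0 without the 4 libraries high in Igkc.

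Of 35 tested genes known to rise in aged HSCs 12 were higher and 0 lower, 31 had log2 fold changes above 0, and the median was 1.02. Of these 12, 5 are megakaryocyte genes described above or counted with them (Vwf, Itga2b, Itgb3, Cavin2 and Cd9), and Slamf1 is shared with the identity list. Among the others, Aldh1a1, which oxidises retinal, lay at 54.3 to 86.5 CPM in NTC (median 59.5) and at 129.6 to 265 in miR139-KD (median 167). No libraries overlapped (1.49, SE 0.181, edgeR adjusted p = 6.97e-04). Nupr1, a stress-responsive chromatin protein, went from a range of 23.4 to 47.7 CPM to one of 56.4 to 154 (1.44, SE 0.244, edgeR adjusted p = 0.00557), with miR139-KD library 1 highest. Itga6, a laminin receptor subunit, differed by 0.90 (edgeR adjusted p = 0.013), with 1 miR139-KD library at 85.8 inside the NTC range of 46.4 to 95.7. Clca3a1 was separated and higher (6.22 to 21.5 against 22.2 to 47.7 CPM), as was Ehd3, an endocytic recycling protein, (2.12, edgeR adjusted p = 0.0304), the latter called in 6 of the 12 reduced fits. Selp and Mt1 were not called. The count was between 8 and 11 when single libraries were left out, 7 without NTC library 6 and miR139-KD library 1 together, and 2 without the 4 libraries high in Igkc.

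Most multipotent progenitor genes fell. Of 15 tested 10 were lower and 0 higher, all 15 log2 fold changes were below 0, and the median was −1.62. In libraries made from many cells, fewer cells of a type and less RNA per cell cannot be told apart. Flt3, the receptor that marks progenitors with lymphoid potential (ENSMUSG00000042817.15, chr5:147330741-147400489, minus strand), lay at 106 to 185 CPM in NTC (median 140.1) and 32.7 to 60.6 in miR139-KD (median 37.0), with library 6 highest. Every miR139-KD library was below every NTC library (−1.80, SE 0.179, edgeR adjusted p = 3.52e-04). Cd48, a surface protein absent from strictly sorted HSCs (ENSMUSG00000015355.13, chr1:171682009-171705258, plus strand), had 90.9 to 181 (median 126) against 16.8 to 45.7 CPM (median 32.2; −2.04, edgeR adjusted p = 0.00144). Cd34, a sialomucin of progenitors, fell less, from a range of 292 to 568 CPM to one of 78.1 to 185 (−1.33, SE 0.201, edgeR adjusted p = 0.00264). The chromatin organiser Satb1 (−1.72), the monocarboxylate transporter chaperone Emb (−1.36) and Wfdc17 (−1.62) were lower without overlap as well. The list had 7 to 10 calls when single libraries were left out and 6 without NTC library 6 and miR139-KD library 1. Without the 4 libraries high in Igkc 8 members were called lower, 7 of them among the 10.

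Some genes of the early T and of the B branch were lower, and most members of both lists were not called. Of 21 tested early lymphoid and T-lineage genes 6 fell and 0 rose (median −1.72), and of 24 B-lineage genes 4 fell and 0 rose (median −1.32). Lck, a kinase of the T cell receptor, had 41.4 to 62.1 CPM in NTC (median 54.8) and 0.799 to 13.6 in miR139-KD (median 5.97; −3.12, SE 0.455, edgeR adjusted p = 0.00226). Lax1, an adaptor that dampens antigen receptor signals, had 10.1 to 30.7 and 2.31 to 4.75 CPM (−2.59, edgeR adjusted p = 0.00148). Dntt, the polymerase that adds bases at joints of antigen receptor genes, ran from 377 to 809 CPM across NTC and from 5.16 to 146 in miR139-KD (−2.66, SE 0.539, edgeR adjusted p = 0.0217), and was called in 10 of the 12 reduced fits. All 3 genes had separated groups, while Cd3e, which marks committed T cells, was at 0 throughout. The early lymphoid and T-lineage list had 5 to 7 calls when single libraries were left out. It had 4 without NTC library 6 and miR139-KD library 1 together, and 4 without the 4 libraries high in Igkc.

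In the B branch Blnk, the adaptor of the B cell receptor (ENSMUSG00000061132.13, chr19:40928927-40994535, minus strand), had 82.0 to 160.0 CPM in NTC (median 111) and 4.36 to 32.3 in miR139-KD (median 13.8; −2.86, SE 0.436, edgeR adjusted p = 0.00269). Cd79a, a signalling chain of that receptor, had 232 to 494 and 3.71 to 93.2 (−2.82, edgeR adjusted p = 0.0112). Pax5, the factor that commits cells to the B lineage, had 45.5 to 94.2 and 0 to 12.9 (−2.85, edgeR adjusted p = 0.0265), and lost its call without NTC library 3, NTC library 6 or miR139-KD library 6. The groups did not overlap for any of these 3. Its partner Ebf1, at 60.2 to 119 and 0 to 44.3 CPM, and the interleukin 7 receptor Il7r, at 19.2 to 51.3 and 0 to 17.98, were separated too but did not pass the test across genes (edgeR adjusted p = 0.123 and 0.152). The count of 4 B-lineage calls was 2 without NTC library 3, NTC library 6 or miR139-KD library 6, 8 without miR139-KD library 2, 1 without NTC library 6 and miR139-KD library 1 together, and 5 without the 4 libraries high in Igkc. The 4 libraries high in Igkc belong to both groups, 1 to NTC and 3 to miR139-KD, and summed B-lineage genes lay at 2889.8 to 9186 CPM for NTC and 857 to 7049 for miR139-KD, with library 5 highest in both groups.

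**Figure D4:**
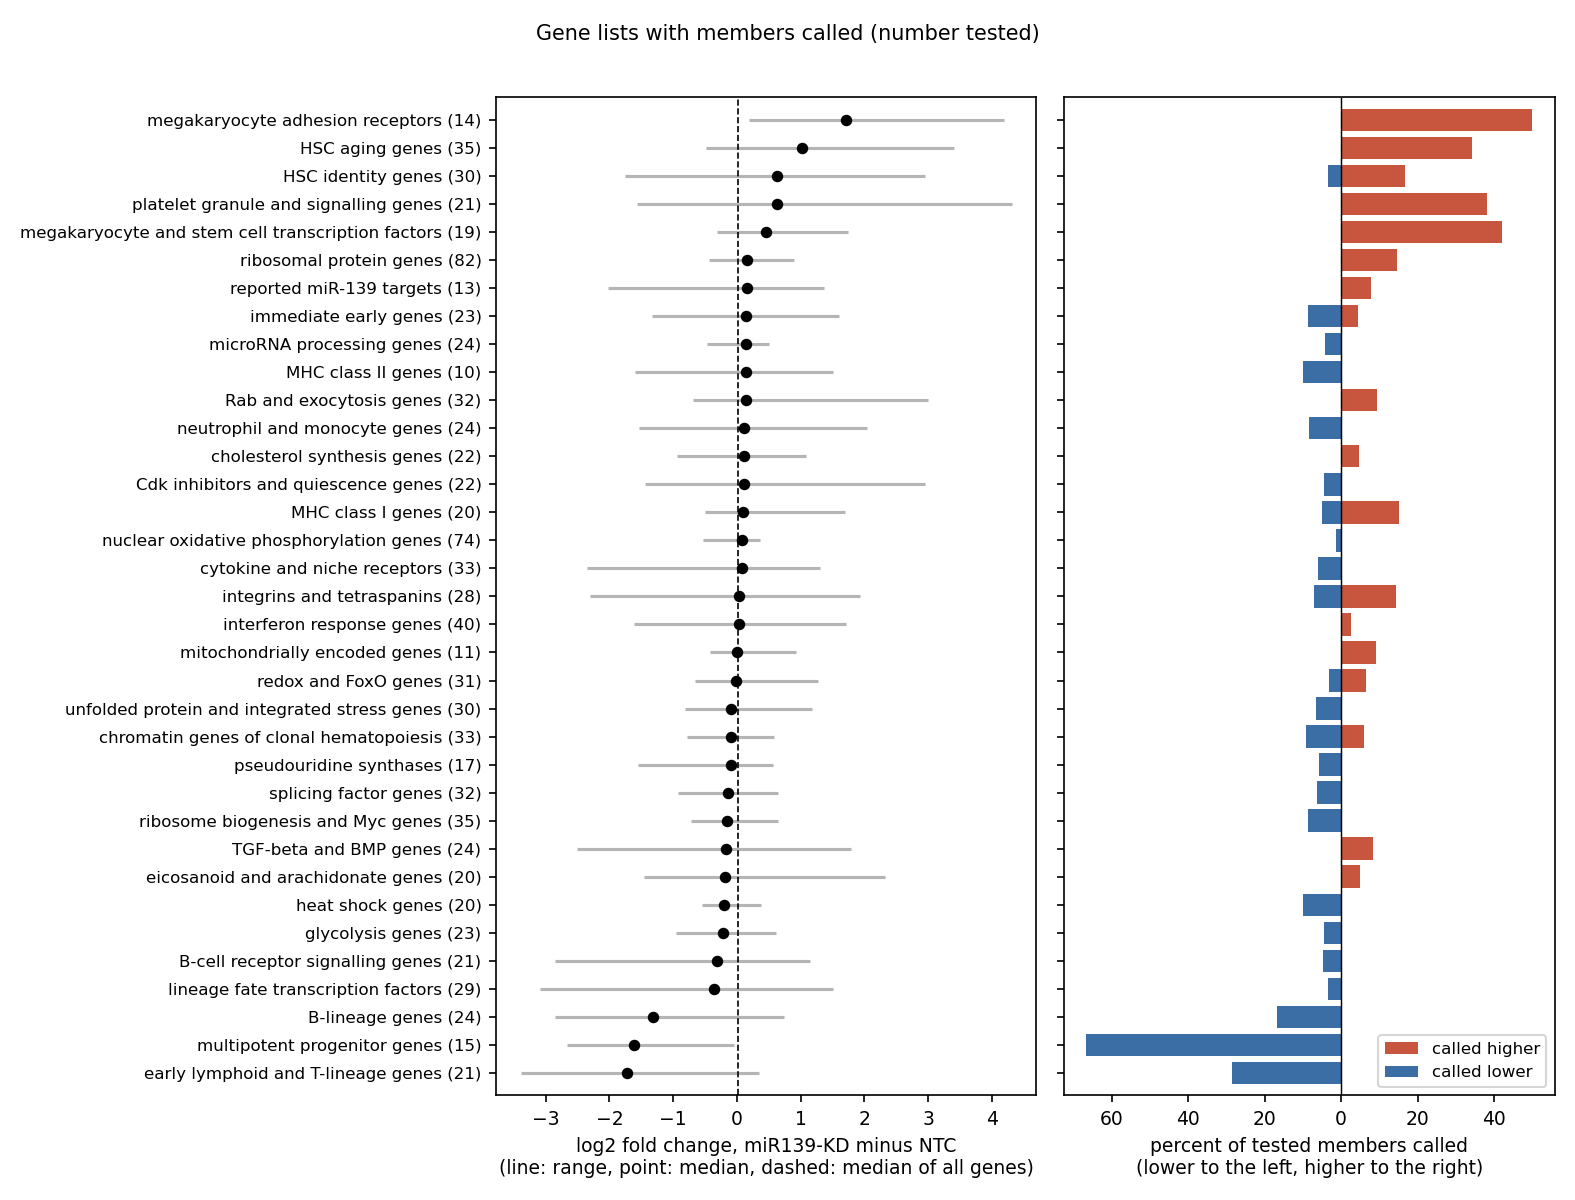
For gene lists with at least 10 members tested and at least 1 called (1 such list is not shown), the left panel gives the range and median of the log2 fold change (miR139-KD minus NTC) and the right panel the percent of tested members called lower (blue) and higher (red). Megakaryocyte and HSC lists sit at the top (median 1.72 for adhesion receptors) and progenitor and lymphoid lists at the bottom (−1.62 and −1.72).

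Calls among myeloid and erythroid genes were small in number. In the neutrophil and monocyte list and in the receptor list the share called was nonetheless above the 2.72% of all genes tested. Of 24 tested neutrophil and monocyte genes 2 were lower and 0 higher, and the median was 0.11. Csf3r, the receptor for granulocyte colony-stimulating factor, had 52.9 to 130.4 CPM in NTC and 19.6 to 60.5 in miR139-KD (−1.27, edgeR adjusted p = 0.0288), and Irf8, the factor that steers progenitors to monocytes and dendritic cells, 27.2 to 129 and 15.1 to 49.0 (−1.53, edgeR adjusted p = 0.0442). Both groups overlapped in both genes, which were called in 5 and 2 of the 12 reduced fits. The myeloid master factor Spi1 differed by −0.57 (edgeR adjusted p = 0.249). Among 19 erythroid genes edgeR and DESeq2 called 0, with 1 at an unadjusted p under 0.05, and the erythroid factor Klf1 differed by −0.53 (edgeR adjusted p = 0.457). Of 33 cytokine and niche receptors, only Flt3 and Csf3r were called, both lower, with a median of 0.07. The interleukin 1 receptor Il1r1 ran from 18.3 to 49.2 CPM across NTC and from 0 to 14.2 in miR139-KD, separated but not called (edgeR adjusted p = 0.101).

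Among the members of the cell cycle lists edgeR called 1 gene. Ccnd3, cyclin D3, which drives entry into the cell cycle in lymphoid and other progenitors (ENSMUSG00000034165.16, chr17:47505051-47599691, plus strand), fell from a range of 277 to 562 CPM in NTC (median 415) to one of 98.3 to 204 (median 149). The groups were apart (−1.44, SE 0.197, edgeR adjusted p = 0.00148). No other of the 22 tested Cdk inhibitor and quiescence genes was called, and the inhibitor Cdkn1a had overlapping groups (−1.36, edgeR adjusted p = 0.103). Of 36 G1/S genes and of 32 G2/M genes edgeR called 0, with 8 and 7 at an unadjusted p under 0.05 and medians of −0.22 and 0.14, and DESeq2 called 3 and 2. Of the G1/S genes 29 had log2 fold changes below 0.

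Genes of the translation apparatus moved by small amounts. Of 82 ribosomal protein genes 12 were higher and 0 lower, and 72 lay above 0, with a median of 0.16, a rise of far less than the gene groups above. Rpsa had 2123 to 2745 CPM in NTC and 3037 to 3415 in miR139-KD (0.40, SE 0.0644, edgeR adjusted p = 0.004). Rps14 had 3271 to 3704 and 3821 to 4586 (0.30, edgeR adjusted p = 0.00699), and Rpl21 and Rpl12 differed by 0.34 and 0.54. Groups were separated in the first 3 of these and overlapped for Rpl12. Ribosomal protein genes have many processed pseudogenes, and how the authors' counting shared such reads was not given, so these small differences are uncertain. The 12 calls became 4 to 6 without any 1 of NTC libraries 2, 3, 4, 5 and 6 or miR139-KD libraries 1, 2, 3, 4 and 6, 2 without NTC library 6 and miR139-KD library 1, and 1 without the 4 libraries high in Igkc. Of 35 ribosome biogenesis and Myc genes 3 were lower, among them Myc (−0.62, edgeR adjusted p = 0.046), which was called in 3 of the 12 reduced fits, and 0 of the 3 held in all of them.

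Genes of adhesion, the cytoskeleton and secretion changed in both directions, beside 1.41% higher and 1.31% lower among all genes tested. Of 28 integrins and tetraspanins 4 rose, all of them megakaryocyte or aging genes named above, and 2 fell, including the leukocyte tetraspanin Cd53 (80.8 to 203 CPM against 32.4 to 62.0; −1.42, edgeR adjusted p = 0.00347). Cnn3, an actin-binding calponin, fell from a range of 84.2 to 165 CPM to one of 12.7 to 49.0 (−2.06, SE 0.34, edgeR adjusted p = 0.00454), and the hematopoietic GTPase Rhoh by a smaller step (−1.03, edgeR adjusted p = 0.00734). Rhof, which forms filopodia, rose (1.39, edgeR adjusted p = 0.0184), although miR139-KD library 6, at 24 CPM, lay within the NTC range. Of 32 Rab and exocytosis genes, whose median was 0.14, 3 rose, Rab27b with Rab11a (0.49) and Vamp8, a platelet secretion SNARE (0.39, edgeR adjusted p = 0.0276). Only Rab27b held in all 12 reduced fits (1 call in all without NTC library 3 or miR139-KD library 2 or 3). In the TGF-beta and BMP list of 24, the co-receptor Tgfbr3 rose from a range of 9.17 to 30.5 CPM to one of 64.3 to 89.2, far apart (1.79, SE 0.241, edgeR adjusted p = 0.00142), and the repressor Ski by 0.90 (called in 8 of 12).

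Immune, metabolic and stress lists held at most 4 calls each. The share called was above the 2.72% of all genes tested in the MHC class I, MHC class II, redox and heat shock lists. It was also above that share in others, including the unfolded protein, cholesterol synthesis, glycolysis and mitochondrially encoded lists, mostly through 1 gene each. Of 20 MHC class I genes 3 of the H2-Q family rose and Pdia3, a chaperone of peptide loading, fell (−0.50, edgeR adjusted p = 0.0116). H2-Q7 had 203 to 359 CPM in NTC and 360.1 to 536 in miR139-KD (0.78), but its family members share sequence and reads may be split among them, and 1 of the 3 calls was left without NTC library 2 or 3 or miR139-KD library 2. H2-Ob, a modulator of class II loading found in B cells, fell from a range of 47.1 to 93.4 to one of 14.2 to 34.3 CPM (−1.59, edgeR adjusted p = 0.00267). The serine synthesis enzyme Phgdh (388 to 612 against 171 to 349 CPM; −0.82, edgeR adjusted p = 0.00909) and the co-chaperone Dnaja1 (−0.54) fell with separated groups. The mitochondrial gene mt-Nd6 was higher (0.64, edgeR adjusted p = 0.00909), and since it lies opposite the other mitochondrial genes and these libraries do not mark strand, its reads cannot be told from theirs. Of 31 redox genes 2 rose, among them thioredoxin, Txn1 (0.39, edgeR adjusted p = 0.00909), and 1 fell. Of 23 glycolysis genes only Pgam1, a phosphoglycerate mutase, was called (−0.94, edgeR adjusted p = 0.0396, in 4 of the 12 reduced fits), and of 20 heat shock genes 2 fell, Dnaja1 and Hspa8 (−0.55, edgeR adjusted p = 0.0225, in 6 of 12). Of the NF-kB, glucocorticoid, lysosome, aminoacyl-tRNA synthetase and Notch and Wnt lists edgeR called 0 members, with 3, 4, 9, 5 and 6 at an unadjusted p under 0.05, and DESeq2 called 2, 2, 1, 0 and 2.

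Among 33 chromatin and splicing genes mutated in clonal hematopoiesis 2 rose and 3 fell, beside 1.41% higher and 1.31% lower among all genes tested. The histone methyltransferase Kmt2d had 125 to 178 CPM in NTC and 62.0 to 115 in miR139-KD (−0.78, SE 0.15, edgeR adjusted p = 0.0132), and the splicing factor Srsf2 300 to 360.0 and 192 to 258 (−0.51, edgeR adjusted p = 0.00616). The cohesin subunit Rad21 rose (99.7 to 139.8 against 154 to 178 CPM; 0.53, edgeR adjusted p = 0.0162). All 3 had separated groups. Suz12 (0.58, edgeR adjusted p = 0.032) and Idh2 (−0.45, edgeR adjusted p = 0.042) were called with all libraries but in 7 and 3 of the 12 reduced fits. In the microRNA processing list of 24 only the helicase Ddx5 was called, lower by a small step (−0.46, edgeR adjusted p = 0.0148). Of 17 pseudouridine synthases only Pusl1 was called, with 32.3 to 57.1 CPM in NTC and 5.37 to 23.1 in miR139-KD (−1.55, SE 0.311, edgeR adjusted p = 0.0162). Beside the 2.72% of all genes called, 1 call in a list of 24 or of 17 says little about the list.

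Several of the largest differences lay outside these lists. The genes named here were picked among called genes with separated groups, so their separation was fixed by the choice. Bcat1, which starts the breakdown of branched-chain amino acids (ENSMUSG00000030268.17, chr6:144993835-145076184, minus strand), had 8.58 to 29.4 CPM in NTC and was at 0 in 5 of 6 miR139-KD libraries, with 8 counts in the remaining one against 1617 counts over the 6 NTC libraries (edgeR adjusted p = 0.00142). The lens filament gene Bfsp2 had 50.2 to 85.1 and 5.63 to 21.2 CPM (−2.78, SE 0.318, edgeR adjusted p = 4.92e-04). The heparan sulfate proteoglycan Sdc4 had 70.3 to 128 and 7.82 to 39.8 (−2.48, edgeR adjusted p = 0.00225). In these 3 genes the lowest NTC library stood above the highest miR139-KD library. Rgl1, an effector of Ras, Drc7, a ciliary protein, and Snx20, a sorting nexin of leukocytes, were lower too, with log2 fold changes of −2.55, −3.74 and −2.12. On the higher side Bex4 had a log2 fold change of 2.31, the adhesion receptor Adgrl1 of 1.88 and Exoc3l2 of 1.81 (edgeR adjusted p = 0.0142, 0.00274 and 0.00291), all with separated groups.

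Matches to the miR-139 seed were next compared with the changes. A site was counted where the longest annotated 3′ UTR of a gene (GENCODE M21) holds ACTGTAG, the reverse complement of the miR-139-5p seed, and was called an 8-base site where an A follows (ACTGTAGA). Of 11111 tested genes with a 3′ UTR 1.64% were called higher and 1.46% lower, with a median log2 fold change of 0.018. Among the 1472 with a miR-139-5p site 25 (1.70%) were higher and 23 (1.56%) lower, with a median of 0.048, against 0.014 in the 9639 without one. Among 495 with an 8-base site 9 were higher and 10 lower (median 0.051), and among 223 with 2 or more sites 3 were higher and 4 lower (median 0.083). UTRs with a site were longer, with a median of 2538 bases against 1015 without. For miR-139-3p, whose site is CGTCTCC, 9 of 451 genes with a site (2.00%) were higher and 4 (0.887%) lower (median 0.049), against 1.62% and 1.48% of the 10660 without (median 0.017). Genes with a miR-139-5p site were called in both directions, and the differences between medians were under 0.1 on the log2 scale.

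**Figure D5:**
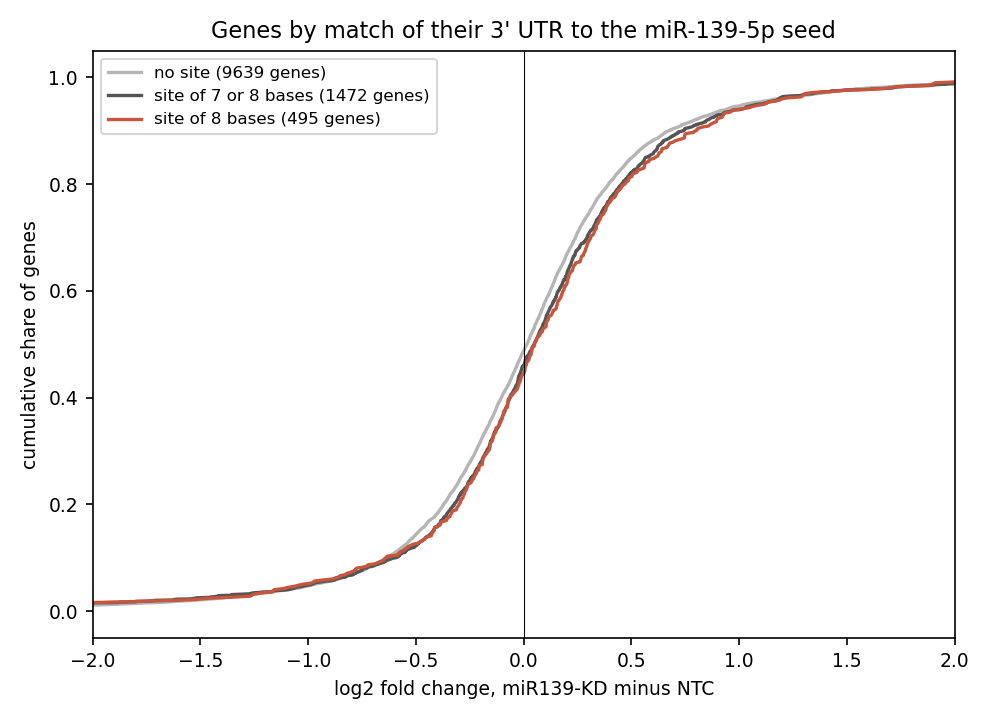
Cumulative share of genes (vertical axis) by log2 fold change, miR139-KD minus NTC (horizontal axis, drawn from −2 to 2), for genes whose 3′ UTR has no miR-139-5p site, any site and an 8-base site. The 3 curves nearly coincide, with medians of 0.014, 0.048 and 0.051.

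Sites of 2 higher and 2 lower genes with an 8-base site are shown as examples. They were picked from each direction separately, so both directions were certain to appear. Each line is the 22 bases on the gene's strand that end at the last base of the site, with the match in capitals (GRCm38, transcripts of GENCODE M21).
Uhmk1, chr1:170198946-170198967, minus strand: ctgttctctgctctACTGTAGA
Uhmk1, chr1:170197717-170197738, minus strand: tgtgtagagttgacACTGTAGA
Gfpt1, chr6:87088882-87088903, plus strand: ggcattttctcgcaACTGTAGA
Flt3, chr5:147330743-147330764, minus strand: gaaataaactttctACTGTAGA
Mta3, chr17:83804694-83804715, plus strand: gccgtaaccctggcACTGTAGA
Uhmk1, a kinase with an RNA recognition motif, had 43.1 to 65.7 CPM in NTC and 86.5 to 118 in miR139-KD (0.90, SE 0.136, edgeR adjusted p = 0.00264). Gfpt1, the first enzyme of the hexosamine pathway, had 16.5 to 25.4 and 32.7 to 61.5 (1.11, SE 0.201, edgeR adjusted p = 0.00889). Both were separated and higher, while Flt3, described above, and Mta3, a subunit of the NuRD chromatin complex, were lower. Mta3 had 103 to 137 CPM in NTC and 35.7 to 64.5 in miR139-KD (−1.16, SE 0.152, edgeR adjusted p = 0.00115).

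Genes reported elsewhere as miR-139 targets were examined as a list of 15, of which 13 were tested. Of these 1 was called, Rap1b, a small GTPase that activates integrins in platelets (ENSMUSG00000052681.8, chr10:117813871-117846035, minus strand). Rap1b had 116 to 156 CPM in NTC (median 124) and 248 to 463 in miR139-KD (median 328). The groups were well apart (1.37, SE 0.157, edgeR adjusted p = 4.92e-04), yet the longest annotated UTR of the gene held 0 miR-139-5p sites of this form. Zeb2, a repressor with 3 sites, went from a median of 38.7 to 61.6 CPM (0.55, edgeR adjusted p = 0.107), and the survival factor Bcl2, with 2 sites, both of 8 bases, had 47.1 to 87.1 and 66.9 to 111 (0.46, edgeR adjusted p = 0.162). The growth factor receptor Igf1r differed by 0.34 (edgeR adjusted p = 0.405). Notch1, with 1 site, differed in the opposite direction, from a range of 14.3 to 40.8 CPM in NTC to one of 1.2 to 15.2 (−2.02, edgeR adjusted p = 0.0677). None of these 4 passed the test, and the median of the 13 was 0.16, with 8 above 0.

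The effect of miR139-KD was then tested against the effects of the PUS10 manipulations. Against PUS10 overexpression (PUS10-OE, n = 3, over Vector, n = 3), 0 of 16397 genes were called by edgeR's interaction test (0.0%), with 1277 at an unadjusted p under 0.05, and DESeq2 called 149. Ptgs1 rose in miR139-KD (2.32) and had a log2 fold change of 0.39 in PUS10-OE, a difference of 1.91 (SE 0.337, edgeR adjusted p = 0.0601). Flt3 stood at −1.80 and −1.30 in the 2 experiments, a difference of −0.51 (edgeR adjusted p = 0.853), and Pf4 at 4.31 and 1.09, a difference of 3.20 (edgeR adjusted p = 0.170). Against the libraries labelled Pus10-KO (n = 3, over Pus10-WT, n = 3), in which Pus10 was not lower (35.2 ± 1.31 against 28.4 ± 7.68 CPM, SD), 25 of 17109 genes were called (0.146%), 12 with a positive and 13 with a negative difference. Of these 25, 19 were also called between miR139-KD and NTC and 1 in the Pus10 comparison itself. Itga2b had log2 fold changes of 1.93 here and −0.34 there, a difference of 2.25 (SE 0.444, edgeR adjusted p = 0.0486). Those of Ptgs1 were 2.32 and 0.19 (difference 2.11, edgeR adjusted p = 0.0313), of Tgfbr3 1.79 and −0.39 (2.17, edgeR adjusted p = 0.0313), and of Gem, a GTPase that restrains calcium channels, 1.66 and −1.20 (2.85, edgeR adjusted p = 0.0111). On the negative side Rgl1 had −2.55 and 1.12 (difference −3.69, edgeR adjusted p = 0.0437) and Plac8 −0.94 and 3.94 (−4.88, edgeR adjusted p = 0.0111), the latter with 151 ± 124 CPM (SD) in the 3 libraries labelled Pus10-KO and a call between miR139-KD and NTC in 9 of the 12 reduced fits. Leaving out single libraries gave 3 to 32 calls, with 3 without Pus10-WT library 1, 15 and 10 without Pus10-WT libraries 2 and 3, 9 and 16 without Pus10-KO libraries 2 and 3, and 14 without miR139-KD library 2. Pf4, Cd48 and Flt3 were not called in this interaction (edgeR adjusted p = 0.0975, 0.473 and 0.423).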

How the data were processed

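Smart-seq2 libraries of 24 HSC samples were processed by the authors, who per the submitters' processing notes used HISAT2 2.1.0, HTSeq 0.11.2 and DESeq2 with mm10, and deposited raw counts per gene; the sources used here do not say how multi-mapped reads and strand were handled. Of 55487 gene identifiers 55394 were given symbols from GENCODE M21 (GRCm38), and 5 summary entries (7.66 to 11.8% of reads without a feature, 12.3 to 20.1% ambiguous) were left out. Counts of the 12 libraries were filtered with filterByExpr, scaled by TMM and tested with edgeR 4.0.16 (quasi-likelihood, robust, Benjamini-Hochberg adjusted p under 0.05) in R 4.3.3, without a block for replicate numbers; interactions with the PUS10 experiments were fitted on 18 libraries each. Log2 fold changes are edgeR's, per gene CPM values are TMM-normalised, and SD is over 6 libraries unless stated. No 2 libraries within the NTC or within the miR139-KD group were duplicates (lowest chi-square per degree of freedom 45.8 over 30 pairs). Other pairs were not checked. Alternatives were DESeq2 1.42.0, limma-voom 3.58.1, other scalings and filters, all 24 libraries in 1 fit, a replicate block and left-out libraries. The scripts were tested on simulated data.

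Genes were named by a rule: Pus10, Pde2a and Mir139; in each direction up to 15 called genes with separated groups, a mean log2 CPM of at least 3 and the largest log2 fold changes; from each list up to 5 members of lowest p, or 2 where fewer than 3 were called; and up to 4 called genes per direction of each interaction. Genes named beyond it, and genes not called, were chosen after their values were seen. The comparison, the 49 gene lists and the tests were chosen with earlier results of these data known. RefSeq gave the microRNA and promoter sequences. Results for some genes and lists are not reported here.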

Additional observations from a re-analysis of the deposited data

Results flagged for a closer look

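In 240 groups of 6 libraries, the highest or lowest library was compared with its nearest neighbour. In 21 it stood apart by more than Dixon's 95% limit, and chance alone gives about 1 in 20.

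In NTC, library 5 was highest for Vwf (64.5 CPM, next 24.8), for summed plasma cell genes (10795, next 411) and for summed B-lineage genes (9186, next 4643), and lowest for Ski (17.9, next 28.8). NTC library 6 was highest for the HSC marker Procr (58.7, next 28.8) and for Nupr1 (47.7, next 32.5). Clec1b was highest in NTC library 1 (2.19), Vldlr in library 2 (86.1) and Phgdh in library 3 (612).

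In miR139-KD, library 6 stood apart for 5 genes: it was highest for Clec1b (20.4 CPM), Flt3 (60.6, next 41.6) and Suz12 (127), and lowest for Cd34 (78.1, next 151) and Rhof (24). Library 1 was highest for Gng11 (130.1) and Nupr1 (154), library 3 lowest for Itga6 (85.8) and the only one with Bcat1 above 0 (0.651), library 4 lowest for Mta3 (35.7), and library 5 lowest for Rps14 (3821) and highest for summed plasma cell genes (9984, next 3359.5). In Vwf, Flt3, Cd34, Mta3, Rps14 and Bcat1 these libraries still lay outside the range of the other group. The cause was not tested.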

How the results depend on the processing

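With all libraries 361 genes were called, 187 higher and 174 lower. DESeq2 called 795 (382 and 413), 1 fit of all 24 libraries 792 (364 and 428), and limma-voom 263 lower. Of the 361 genes, 333 kept their call in the fit of all 24 libraries, and Satb1, H2-Ob and Exoc3l2 lost theirs. Without NTC library 6 and miR139-KD library 1, an alternative chosen after seeing the data, 212 were called (110 and 102), and without the 4 libraries high in Igkc, also chosen after seeing the data, 60 (23 and 37). Leaving out single libraries gave 196 to 340 calls, 101 to 173 higher and 95 to 185 lower. The interaction with PUS10-OE had 149 calls by DESeq2, 15 with a filter of 10 CPM and 0 to 9 with single libraries left out (9 without miR139-KD library 1). The interaction with Pus10-KO had 192, 43 and 3 to 32. The cause of these shifts was not tested. Other scalings and the absence of a filter kept the 3 counts of the miR139-KD comparison within 1.5 times.

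Replicate numbers were shared across groups, but same-numbered libraries did not deviate together (correlations −0.0157 to 0.0197), and 1 of 12 correlated best with its own number. With the replicate block, 188 genes were called (84 and 104), and 2 in the Pus10-KO interaction.

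For 107 genes and 2460 settings, the direction reversed in 0 for called genes, the call was lost in 258 and gained in 17. List medians kept their sign in every setting for 31 of 49 lists, among them the megakaryocyte, HSC, aging, progenitor and lymphoid lists. The median of all genes stayed between −0.0151 and 0.0236 in every fit.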

Other observations

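Levels of 4 genes, chosen after their values were seen, are given side by side for the control groups of the 3 experiments, each scaled separately and not tested against each other. Flt3 stood at 142 ± 28.6 CPM in NTC (SD, n = 6), 78.5 ± 6.54 in Vector (n = 3) and 3.66 ± 2.89 in Pus10-WT (n = 3). Cd48 stood at 131 ± 39.7, 79.1 ± 29.1 and 15.9 ± 12.7 CPM. The early response GTPase Gem had 14.9 CPM in NTC and 150 ± 5.82 in Pus10-WT, and Vwf had 21.3 CPM in NTC and 156 in Pus10-WT.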
